A study of Oryza sativa Japonica Group with 6 samples.

Results

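The genes examined are the cyclins, the cyclin-dependent kinases (CDKs) and the Kip-related protein (KRP) inhibitors of rice, measured in roots after a short loss of nitrogen. A gene was included when its symbol or a synonym in the gene annotation, leading Os ignored, began with CYC followed by a letter and a digit, with CDK followed by a letter, or with KRP followed by a digit. The annotation held 49 such genes, and 40 of them were tied to a probe set of their own, out of 17905 genes measured. Rice seedlings of cv. TNG67 (japonica), aged 10 days and all raised hydroponically on ammonium nitrate, gave the root RNA. The −N roots had spent 1 h in a medium lacking ammonium nitrate and the +N roots had kept it, with 3 labelled biological replicates a treatment, 1 Affymetrix GeneChip rice array each, and the brightness of a probe set read as an intensity. Whether +N seedlings were also moved to new medium differs between the sample labels, which have it so, and the Methods, which name −N only. Among the labels, 0.5 h is written for +N replicate 3, while −N replicates 1 and 2 are titled as reanalyses.

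Cyclins are the regulatory partners that switch CDKs on, and each class acts at its own stage of the cell cycle. In plants D-type cyclins act with A-type CDKs at the entry into the cycle, A-type cyclins act from DNA synthesis onward, and B-type cyclins with the plant-specific B-type CDKs drive mitosis. KRP proteins bind cyclin-CDK complexes and hold them inactive. The remaining cyclins (C, H, L, P and T types, counted here with the F-type gene CYCF2-2) and CDKs (C to G types) mostly serve transcription, splicing, the activation of other CDKs or nutrient signalling. In a root, dividing cells are concentrated in the meristem of the tip and in young lateral roots. The arrays read RNA of whole roots, so fewer cells of a type and less RNA per cell cannot be told apart.

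Of the measured genes, 3 of 4 annotated A-type cyclins, 4 of 5 B-type cyclins, 9 of 10 D-type cyclins and 9 of 10 other cyclins had a probe set. So did 2 of 2 A-type CDKs, 1 of 2 B-type CDKs, 8 of 10 other CDKs and 4 of 6 KRP genes. No probe set was used here for CYCA3-1, CYCB1-5, CYCD2-1, CYCT1-1, CDKB1-1, CDKC-2, CDKF-2, KRP2 and KRP3. The array medians ran from 33.3 to 35.2, and 36 of the 40 genes lay above the median of their array on all 6 arrays. CYCB1-3, CYCD2-2 and CYCF2-2 lay below it on all 6, and CYCD4-2 was below it on 2. No filter on dim probe sets was applied, so all 40 genes were tested.

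Both arrays of replicate 1 stood apart from the other 4. Their upper quartiles were 131 in −N and 137 in +N, against 166 to 180 on the other arrays. The median gene differed by −0.39 on the log2 scale between replicate 1 and the mean of replicates 2 and 3, and by −0.10 after quantile normalization. For the 40 genes the median of this difference was −0.63 as deposited and −0.21 after quantile normalization, and the 8 A- and B-type cyclins and B-type CDKs had a median of −0.90 as deposited and −0.62 after quantile normalization. Replicate 1 was the lowest array of both treatments for 35 of the 40 genes, against 59.9% of all genes, and it was at least 2-fold lower for 5 of them, against 10.5%. The differences reached −1.30 for CYCA2-1 (LOC4352280), −1.27 for CYCB1-1 (LOC4327547) and −1.35 for CYCD4-2 (LOC4345844), and after quantile normalization they were −0.86, −0.82 and −1.31. CYCD6-1 and CYCF2-2 were instead highest in replicate 1, with 0.54 and 0.78, or 0.87 and 0.70 after quantile normalization. Arrays with equal replicate numbers deviated together from their group means, so each −N array is also set against the +N array of the same number below.

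**Figure D1:**
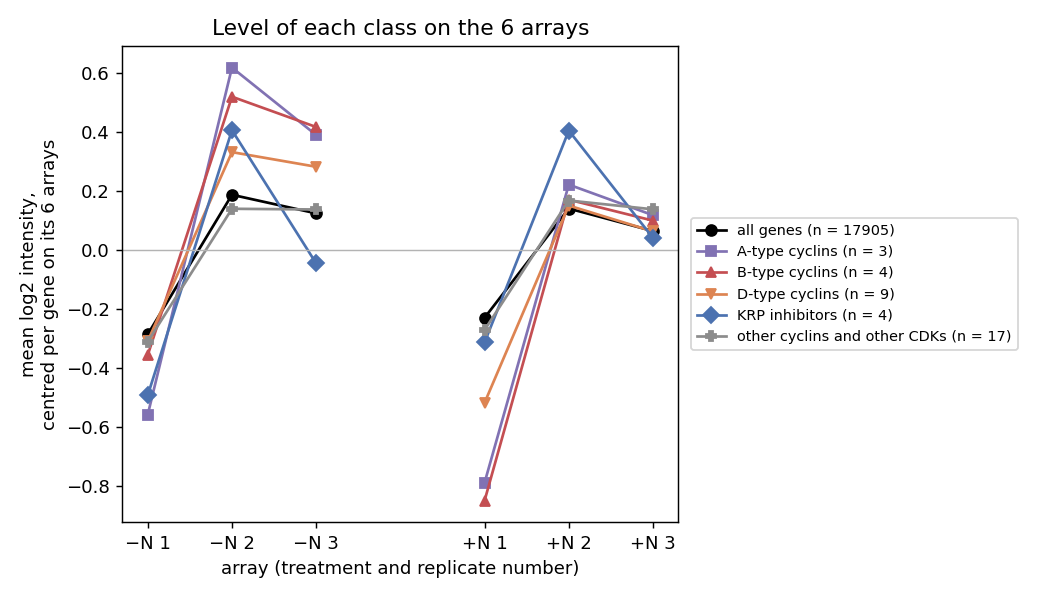
Mean log2 intensity of each class on each array, after each gene was centred on its mean over the 6 arrays (y axis), for −N replicates 1 to 3 and +N replicates 1 to 3 (x axis). Lines join arrays of a treatment. Replicate 1 is the lowest array of both treatments for each class drawn, and the B-type cyclins span −0.85 on +N replicate 1 to 0.52 on −N replicate 2.

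None of the 40 genes passed limma at an adjusted p of 0.05, where 0.0223% of all genes were higher in −N and 0.0838% were lower. None had an unadjusted p under 0.05 (2.17% of all genes higher, 3.08% lower), and the lowest was 0.142, for CYCD4-1. None was 2-fold apart between −N and +N, against 0.765% of all genes higher and 1.4% lower. The log2 fold changes, −N over +N, ran from −0.40 for KRP6 to 0.60 for CYCA2-1. When the replicate number was fitted as a block, again 0 of the 40 passed (0.212% of all genes higher, 0.408% lower), and the lowest adjusted p was 0.0882, for CYCA2-1. At an unadjusted p under 0.05 in the blocked fit, 11 of the 40 genes were higher in −N and 2 were lower, where 12.8% and 7.89% of all genes were. Within the pairs, 20 of the 40 genes were higher in −N all 3 times and 7 were lower all 3 times, where 26.5% and 17.5% of all genes were. After quantile normalization these counts were 19 and 10. Positive log2 fold changes were found for 24 of the 40 genes (55.7% of all genes) and negative ones for 16 (44.3%), and the median was 0.12, beside 0.03 for all genes.

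**Figure D2:**
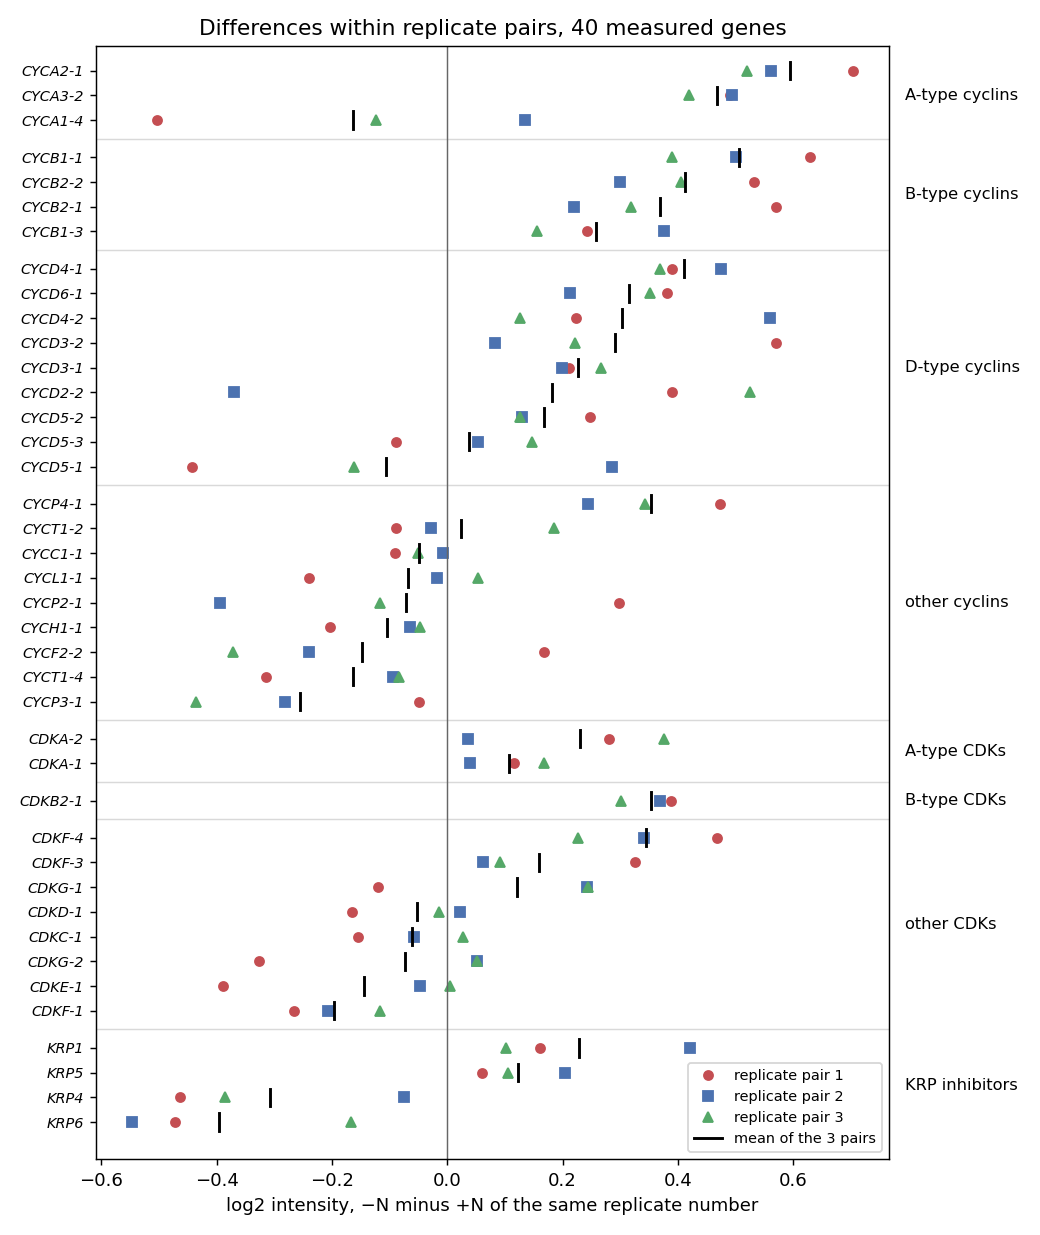
Difference in log2 intensity between −N and +N of the same replicate number (x axis) for each of the 40 measured genes (y axis), grouped by class. Symbols are the 3 replicate pairs and the bar is their mean. For the 4 B-type cyclins and CDKB2-1 all 3 symbols lie to the right of 0, and for KRP4 and KRP6 all 3 lie to the left.

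The A- and B-type cyclins and CDKB2-1 act from DNA synthesis to mitosis. For 7 of these 8 genes −N was higher in all 3 replicate pairs, against 26.5% of all genes. The median log2 fold change of the 8 genes was 0.39. CYCB1-1, a mitotic cyclin, had intensities of 258, 667 and 509 in −N replicates 1, 2 and 3, against 167, 471 and 389 in +N. The groups overlapped because −N replicate 1 lay below +N replicates 2 and 3. Each −N array still exceeded its +N partner, by 1.55-, 1.41- and 1.31-fold. Its log2 fold change was 0.51 with an SE of 0.48 in limma (adjusted p = 1), and in the blocked fit the SE was 0.10 (adjusted p = 0.108). The log2 fold change was 0.053 without +N replicate 1, 0.90 without −N replicate 1 and 0.44 without both.

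CYCB2-1 (LOC4336670) and CYCB2-2 (LOC4342121) encode the other mitotic cyclins with probe sets well above the array median. CYCB2-1 had 333, 578 and 494 in −N, against 224, 497 and 396 in +N, with a log2 fold change of 0.37 (SE 0.35, or 0.11 with the block). CYCB2-2 had 281, 530 and 502 in −N, against 194, 431 and 379 in +N, with a log2 fold change of 0.41 (SE 0.38, or 0.10 with the block). In both genes the groups overlapped and every −N array lay above its partner, and neither passed with the block (adjusted p = 0.166 and 0.132 in limma). A further probe set of CYCB2-2, which by its name can bind related transcripts, gave a log2 fold change of 0.46, again higher in all 3 pairs. CYCB1-3 (LOC4326914) was dim, with 12.7, 16.9 and 20.6 in −N, against 10.7, 13.04 and 18.5 in +N, and a log2 fold change of 0.26.

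CDKB2-1 (LOC4346016), a kinase of the G2 phase and mitosis found only in plants, had intensities of 325, 573 and 496 in −N, against 248, 444 and 403 in +N. Its ratios within pairs were 1.31, 1.29 and 1.23, and its log2 fold change was 0.35 (SE 0.32, or 0.09 with the block, adjusted p = 0.142 in limma with the block). Replicate 1 differed from the other replicates by −0.74 on the log2 scale as deposited and by −0.27 after quantile normalization, where the log2 fold change was 0.34.

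**Figure D3:**
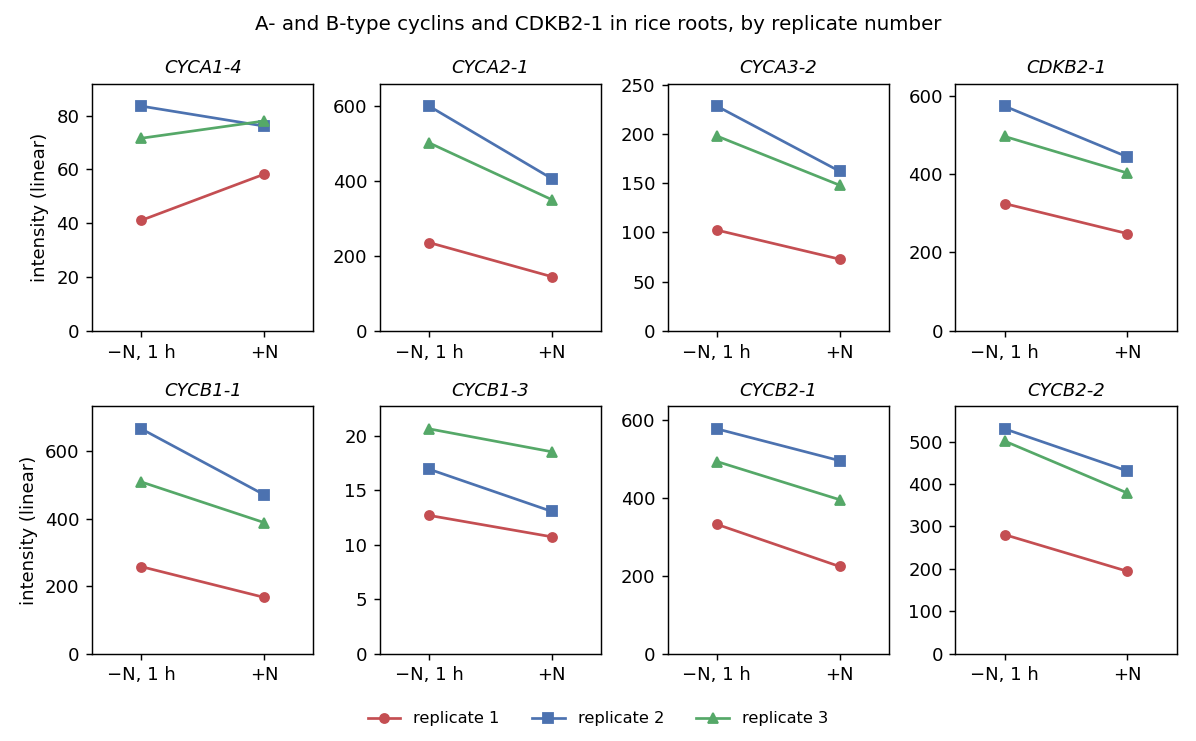
Linear intensity (y axis, from 0) of the A- and B-type cyclins and CDKB2-1 in −N (left) and +N (right) roots. Each line joins the arrays of 1 replicate number. The −N end of the line is the higher one for all replicate numbers in 7 of the 8 genes, while CYCA1-4 has lines in both directions, and the replicate 1 line lies below the others.

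Among the A-type cyclins, CYCA2-1 had the highest log2 fold change. It had intensities of 236, 599.9 and 502 in −N, against 145, 406 and 350.2 in +N. The ratios of its pairs were 1.63, 1.48 and 1.43, and the log2 fold change was 0.60 (SE 0.48, or 0.10 with the block). CYCA3-2 (LOC4352642), of a subclass known for DNA synthesis, had 102, 228 and 198 in −N, against 72.8, 162 and 148 in +N. Its log2 fold change was 0.47 (SE 0.41, or 0.09 with the block, adjusted p = 0.106 in limma with the block). Groups overlapped in both genes, with each −N array above its partner. CYCA1-4 (LOC4338177) differed from them in its pairs. It had 41.1, 83.5 and 71.6 in −N, against 58.2, 76.1 and 78.0 in +N, lower in −N in replicates 1 and 3 and higher in replicate 2. Its log2 fold change of −0.16 (SE 0.31) became 0.14 without −N replicate 1.

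The D-type cyclins, which link growth signals to the entry into the cycle, had 8 positive log2 fold changes and 1 negative, with a median of 0.23. In 6 of the 9 genes −N was higher in all 3 pairs, and in none was it lower in all 3. Of all genes, 26.5% were higher and 17.5% lower in all 3. The class median turned to −0.053 when +N replicate 1, the array with the lowest D-type level, was left out. CYCD4-1 (LOC4347313) had the highest log2 fold change of the class, with 213, 301 and 307 in −N, against 162, 217 and 237 in +N. The −N arrays of replicates 2 and 3 lay above all +N arrays and −N replicate 1 did not. Its log2 fold change was 0.41 (SE 0.25, or 0.09 with the block, adjusted p = 0.122 in limma with the block). CYCD6-1 (LOC4343569), whose Arabidopsis counterpart acts in the divisions that pattern the ground tissue of the root, had 158, 96.1 and 116 in −N, against 122, 82.9 and 90.8 in +N. It was the only D-type cyclin that was highest in replicate 1, and it was still higher in −N in each pair (1.30-, 1.16- and 1.28-fold, adjusted p = 0.168 in limma with the block).

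CYCD5-2 (LOC4352668) had 333, 404 and 393 in −N, against 280.1, 369 and 360.3 in +N, and a log2 fold change of 0.17 (SE 0.21). The only negative value of the class was that of CYCD5-1 (LOC4333455), which had 169, 412 and 246 in −N, against 230.1, 338 and 275 in +N. Its log2 fold change was −0.11 (SE 0.34), and −N lay above +N in replicate 2 alone. It turned to 0.20 without −N replicate 1. CYCD3-1, CYCD3-2, CYCD4-2, CYCD2-2 and CYCD5-3 ranged from 0.04 for CYCD5-3 to 0.30 for CYCD4-2.

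The A-type CDKs, the main kinases of the cycle and its entry, both had positive log2 fold changes with overlapping groups. CDKA-1 (LOC4331415) had intensities of 808, 866 and 889.8 in −N, against 745, 843 and 792 in +N, and its log2 fold change was 0.11 (SE 0.19). CDKA-2 (LOC4328135) had 306, 341 and 445 in −N, against 252, 333 and 343 in +N, and its log2 fold change was 0.23 (SE 0.24). Both were higher in −N in all 3 pairs, at most 1.12-fold for CDKA-1 and 1.30-fold for CDKA-2, and after quantile normalization 1 of them was. Replicate 1 differed from the other replicates of CDKA-1 by −0.13 on the log2 scale as deposited and by 0.31 after quantile normalization, beside medians of −0.39 and −0.10 over all genes. By their names on the array, the probe set used for CDKA-1 is shared by several transcripts and that used for CDKA-2 can bind related transcripts. A pair of other CDKA-2 probe sets without such a mark gave log2 fold changes of 0.24 and 0.26. The former was higher in −N in all 3 pairs, and the latter, with a mean intensity of 54.8, in 2. An unmarked CDKA-1 probe set was dim, with a mean intensity of 13.3. It gave a log2 fold change of 0.03 and was higher in −N in 1 pair.

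Of the KRP inhibitors, KRP4 and KRP6 had negative and KRP1 and KRP5 positive log2 fold changes. KRP6 (LOC4347280) had intensities of 134, 251 and 149 in −N, against 186, 366 and 168 in +N, and KRP4 (LOC4348872) had 129.7, 299 and 169 in −N, against 179, 315 and 220.5 in +N. For both genes replicate 2 was high in each treatment, the groups overlapped, and each −N array lay below its partner. The log2 fold changes were −0.40 for KRP6 (SE 0.37, or 0.12 with the block) and −0.31 for KRP4 (SE 0.36, or 0.12 with the block), and with the block the adjusted p was 0.161 and 0.228 in limma. KRP6 had −0.14 over averaged probe sets and ran from −0.67 without −N replicate 2 to −0.045 without +N replicate 2. KRP1 (LOC4330816) had 288, 569 and 552 in −N, against 257, 425 and 515 in +N, with a log2 fold change of 0.23 (SE 0.36), and KRP5 (LOC4331554) had one of 0.12 (SE 0.22). These 2 genes were higher in −N in all 3 pairs, so the class had a median of −0.09 with no common direction, and of 0.02 over averaged probe sets. KRP1 turned to −0.059 without +N replicate 1.

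**Figure D4:**
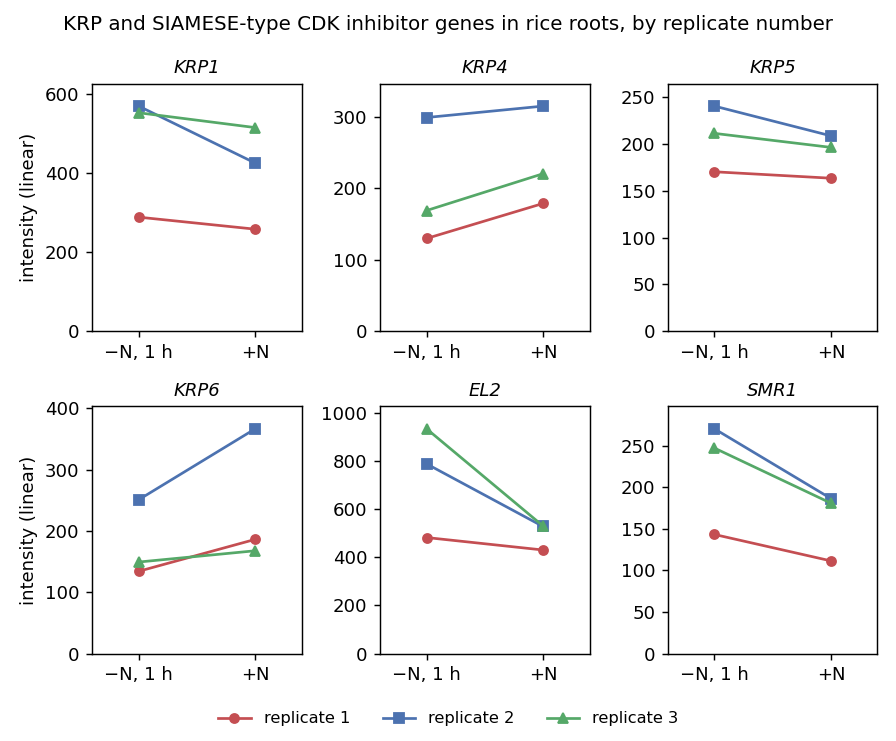
Linear intensity (y axis, from 0) of the 4 KRP genes and of the SIAMESE-type inhibitor genes EL2 and SMR1 in −N (left) and +N (right) roots, with a line for each replicate number. The −N end is the lower one for all 3 replicate numbers in KRP4 and KRP6, and the higher one in KRP1, KRP5, EL2 and SMR1.

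A second family of plant CDK inhibitors, related to SIAMESE of Arabidopsis, was represented by EL2 (LOC4331332) and SMR1 (LOC4349289). SMR1 was chosen after its values were seen. EL2 had intensities of 482, 788 and 933 in −N, against 430.3, 528 and 529.9 in +N, and SMR1 had 143, 270.3 and 247 in −N, against 112, 187 and 181 in +N. Their log2 fold changes were 0.52 (SE 0.28, or 0.15 with the block) and 0.45 (SE 0.33, or 0.10 with the block). Both were higher in −N in all 3 pairs, unlike KRP4 and KRP6, and neither passed with the block (adjusted p = 0.158 and 0.116 in limma).

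The 17 remaining cyclins and CDKs, whose known roles lie mostly outside the division cycle, split into 5 with positive and 12 with negative log2 fold changes (median −0.07). In 3 of them −N was higher in all 3 pairs and in 5 it was lower, against 26.5% and 17.5% of all genes. After quantile normalization the lower ones numbered 4 among the other cyclins, against 4 as deposited, and 4 among the other CDKs, against 1 as deposited. Without −N replicate 1 the medians turned to 0.13 for the other cyclins and 0.23 for the other CDKs. CYCP3-1 (LOC4338711) belongs to the P-type cyclins, relatives of a yeast cyclin of phosphate sensing. It had intensities of 697, 610.1 and 636 in −N, against 721, 741 and 859.8 in +N, and was the only 1 of the 40 genes whose groups did not overlap, where in −N 5.32% of all genes were apart and lower and 3.98% apart and higher. Its log2 fold change was −0.26 (SE 0.20, or 0.11 with the block, adjusted p = 0.287 in limma with the block). CYCP4-1 (LOC4349405), of the same type, was higher in −N in each pair, with 526, 878 and 1069.6 in −N, against 379, 741 and 843 in +N and a log2 fold change of 0.35 (SE 0.39, or 0.10 with the block). CYCP2-1 (LOC4336603) had 1541, 1259.6 and 1769 in −N, against 1254, 1656 and 1918 in +N, with no common direction in its pairs (log2 fold change −0.07, SE 0.25).

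Cyclins and kinases that work as partners in transcription and splicing had log2 fold changes between −0.16 and 0.12 in the probe sets used. CYCC1-1 and CDKE-1, which belong to the kinase part of the Mediator complex, had log2 fold changes of −0.05 and −0.14. A second CDKE-1 probe set, with a mean intensity of 122.9, gave −0.85 and was lower in −N in all 3 pairs. CYCT1-2, CYCT1-4 and CDKC-1, which promote elongation by RNA polymerase II, had 0.02, −0.16 and −0.06. CYCH1-1 and CDKD-1, which form a CDK-activating kinase, had −0.10 and −0.05, and CYCL1-1, CDKG-1 and CDKG-2, linked to splicing, had −0.07, 0.12 and −0.07. For the genes of these partnerships the SE in limma was between 0.20 and 0.38, or between 0.09 and 0.12 with the block, and none passed in either fit. Among the CDKF genes, CDKF-4 (LOC4330434) had 698, 1004 and 909 in −N, against 505, 793 and 778 in +N, and its log2 fold change was 0.34 (SE 0.26, or 0.10 with the block, adjusted p = 0.160 in limma with the block). Its second probe set, with a mean intensity of 370.9, gave 0.16 and was higher in −N in 2 of the 3 pairs. CDKF-1 (LOC4340934), whose Arabidopsis counterpart activates other CDK-activating kinases, had 567, 725 and 682 in −N, against 682, 837 and 739 in +N, and was lower in −N in all 3 pairs with a log2 fold change of −0.20 (SE 0.21). CDKF-3 and CYCF2-2 had log2 fold changes of 0.16 and −0.15.

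Other genes of the cell cycle were taken from lists by symbol. Of 25 measured genes of the G1 to S transition and DNA replication, 20 had positive log2 fold changes and 5 negative ones (median 0.14), and none passed in limma with or without the block. In 11 of them −N was higher in all 3 pairs, and in 3 it was lower, against 26.5% and 17.5% of all genes. Positive log2 fold changes were found for 55.7% of all genes. ORC1 (LOC4340349), a subunit of the origin recognition complex, had 56.5, 121 and 122 in −N, against 39.5, 90.1 and 84.5 in +N, and its log2 fold change was 0.49 (SE 0.42, or 0.09 with the block, adjusted p = 0.100 in limma with the block). At the other end OsRPA32-2, a subunit of the single-strand binding protein RPA, and ORC5 had log2 fold changes of −0.19 and −0.17. This list was low in replicate 1 as well, with a median difference of −0.82 on the log2 scale (−0.44 after quantile normalization), and most of all for the retinoblastoma-related gene OsRBR1, with 28.0, 101 and 93.5 in −N, against 24.7, 87.5 and 79.8 in +N.

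The 6 measured genes of mitosis and its exit include EL2 and SMR1. All 6 were higher in −N in all 3 pairs, against 26.5% of all genes. The median log2 fold change of the 6 was 0.25, and none passed in limma with or without the block. The others in this list were CKS1, a docking subunit of CDKs, the transcription factor gene MYB3R-2, the centromeric histone gene CenH3 and the cytokinesis kinesin gene NACK, with log2 fold changes of 0.13, 0.20, 0.21 and 0.29. Of 5 histone H2B genes, 3 had positive and 2 had negative log2 fold changes, between −0.09 and 0.18, with a median of 0.00. The median difference of replicate 1 was −0.26 for the H2B genes, beside −0.63 for the 40 genes, and after quantile normalization 0.02 beside −0.21.

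Markers of root cell types and of green tissue were read beside these genes. Of 6 measured root and meristem markers, 4 had positive log2 fold changes and 2 negative ones (median 0.18), and none passed in limma. QHB, a gene of the quiescent centre, had 71.7, 72.5 and 64.1 in −N, against 40.2, 67.7 and 64.1 in +N. The ground tissue and endodermis genes OsSCR1, OsSHR1 and OsCASP1 had log2 fold changes of 0.16, 0.20 and 0.25, with OsSCR1 dim, at most 28.2 on any array. The negative log2 fold changes were −0.16 for Lsi1, lower in −N in all 3 pairs, and −0.16 for Lsi2, lower in 2 pairs. Lsi1, the brightest of the markers, had 11842, 14164 and 14171 in −N, against 13192, 15295 and 16384 in +N. The summed intensity of the 6 markers was 16345 to 21548 in −N and 17285 to 23778 in +N. Most of each sum came from Lsi1 and Lsi2, while QHB, OsSCR1 and OsSHR1 were at most 230 on any array. The median difference of replicate 1 for these markers was −0.73 on the log2 scale (−0.46 after quantile normalization), and their part in the split of the cyclins between replicate numbers was not tested. All 4 measured green shoot markers had negative log2 fold changes (median −0.84), and none passed in limma with or without the block. For 2 of them −N and +N did not overlap, with −N lower, where 5.32% of all genes were apart and lower in −N. The summed intensity of all 4 was 6793 to 11435 in −N and 12865 to 21772 in +N. OsrbcS, the small subunit of Rubisco, had 846, 935 and 587 in −N, against 3407, 1229 and 1497 in +N, and the RBCS1 probe set was near the floor on all arrays, at 5.48, 5.10 and 5.34 in −N, against 6.06, 5.15 and 5.34 in +N. The green markers were highest on +N replicate 1, the array with the lowest mean level of the A-, B- and D-type cyclins, and their part in the differences between pairs was not tested.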

How the data were processed

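The intensity values deposited by the authors cover 57381 probe sets on 6 arrays, 3 from −N and 3 from +N roots. GCOS and RMA are the tools listed in the processing notes of the submitters, and neither version nor order is stated in the sources read. Intensities were taken to log2 without a pseudocount. Control probe sets (187) were left out. Each of 17905 genes was represented by its brightest probe set tied to that gene alone, with names from the platform annotation and a RefSeq gene table (assembly ASM3414082v1). CYCB1-1 and CYCT1-1 are synonyms of more than 1 gene, and the locus identifiers tell them apart. Treatments were compared by limma 3.58.1 (lmFit, eBayes) under R 4.3.3, with a two-sided test. Benjamini-Hochberg adjustment covered the 17905 genes, and calls were made at 0.05. Each SE belongs to a log2 fold change. The fit was tested on simulated data. The number of arrays limits the precision. The labels call the replicates biological, and separate cultures are named in no source used here. The p-values speak only for the spread among these samples.

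Whether equal replicate numbers pair the arrays was checked by the correlation of deviations from group means over probe sets, which was 0.785, 0.664 and 0.653 for numbers 1, 2 and 3 and −0.55 to 0.08 for unequal numbers. The numbers were therefore used as pairs, a pairing that comes from the data. Members and lists were chosen with earlier results of these data known. Genes were named with all array values if they passed the adjusted threshold in either fit or an unadjusted p of 0.05 without the block (none did), or if in their class they had the highest mean level or the largest positive or negative log2 fold change. Other members with array values were chosen after their values were seen. Of other cell cycle genes, the 2 largest log2 fold changes in each direction are named. Planned motif searches were not run, and sequences were not used here. Alternatives were the replicate block, quantile normalization, median centring, averaging of probe sets, a filter on dim genes, a pseudocount of 16 and leaving out arrays.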

Additional observations from a re-analysis of the deposited data

How the results depend on the processing

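None of the 40 genes passed limma under any alternative. Over all genes, the 19 calls became 111 with the replicate block and 0 to 24 when a single array was left out, with 24 without −N replicate 1 and 0 without any other. Leaving out both arrays of a replicate number, chosen after seeing the data, gave 0 calls without the block for each number, and with the block 107 without replicate 1 and 0 without replicate 2 or 3. The block changed no call of the 40 genes.

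When single arrays were left out, the medians of log2 fold changes by class depended most on replicate 1. Without both arrays of replicate 1 the medians were 0.46 for the A-type cyclins, 0.31 for the B-type cyclins and 0.34 for CDKB2-1. With all arrays they were 0.47, 0.39 and 0.35. The other cyclins, other CDKs and KRP inhibitors had −0.056, 0.028 and −0.037 without both arrays, against −0.071, −0.057 and −0.092 with all. Leaving out a single array gave 0.11 to 0.82 for the A-type cyclins, 0.056 to 0.65 for the B-type cyclins, −0.053 to 0.48 for the D-type cyclins, −0.24 to 0.13 for the other cyclins, 0.10 to 0.59 for CDKB2-1, −0.16 to 0.23 for the other CDKs and −0.32 to 0.11 for the KRP inhibitors, and the extremes came from leaving out −N or +N replicate 1, except the lowest KRP value, which came without −N replicate 2. The A-type median was 0.60 with the filter on dim genes and 0.42 with the pseudocount. The D-type median was 0.29 over averaged probe sets, 0.17 with the filter, 0.20 with the pseudocount and 0.15 without both arrays of replicate 1, with or without the block. Without both arrays of replicate 2 the other cyclins had −0.093, with or without the block, and with the filter the KRP inhibitors had 0.23. With the filter, 13 genes were higher in −N in all 3 pairs, of 26 that passed it. Left out singly, arrays gave −0.37 to 0.14 for CYCA1-4, −0.44 to 0.20 for CYCD5-1, −0.24 to 0.066 for CYCP2-1, −0.00017 to 0.65 for CYCP4-1 and −0.059 to 0.55 for KRP1. Genes that kept their sign also varied, from 0.13 to 1.00 for CYCA2-1, 0.053 to 0.90 for CYCB1-1, 0.042 to 0.62 for CYCB2-1, 0.10 to 0.59 for CDKB2-1, 0.25 to 0.58 for CYCD4-1, 0.041 to 0.25 for CYCD5-2, 0.06 to 0.15 for CDKA-1, 0.08 to 0.35 for CDKA-2, 0.13 to 0.50 for CDKF-4, −0.27 to −0.09 for CDKF-1 and −0.67 to −0.045 for KRP6. Without both arrays of replicate 1, CYCA1-4 had 0.0052 and CYCD5-1 had 0.062, and without both of replicate 2, CYCP2-1 had 0.090, in each case with or without the block. All 40 genes kept their sign with the block, quantile normalization, median centring, averaged probe sets and the pseudocount. Where values moved, the cause was not tested. Depth does not apply to arrays, and probe sets near the floor are limited by background.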

Other observations

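Of the 40 genes, 11 had more than 1 probe set, and for 8 of these all probe sets had the same sign. For CYCD5-2 the dimmer probe set, with a mean intensity of 92.6, gave a log2 fold change of 0.52 and was higher in −N in all 3 pairs, against 0.17 for the brighter one. The second probe sets of KRP4 and KRP6 had means of 10.4 and 11.3 and log2 fold changes of 0.15 and 0.12, opposite to the probe sets in use.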
